A study of Canis lupus familiaris with 24 samples.

Results

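The genes described here are 10 members of the Wnt pathway, taken by symbol from the deposited gene table of 32704 dog genes, in which all 10 symbols were found. They were the ligands WNT5A, WNT5B and WNT7B, the secreted inhibitors NOTUM and DKK1, the membrane ubiquitin ligase RNF43, the intracellular feedback genes AXIN2 and NKD1, and the transcription factors TCF7 and LEF1. Of these, 8 passed the filter on low counts and were tested, and NKD1 and LEF1 were too low to test. DKK1 passed only through the MDCK-NBL2 libraries.

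Wnt proteins are secreted signals that bind Frizzled receptors with a co-receptor. In the canonical branch this stops the destruction complex from degrading beta-catenin, which then joins TCF and LEF factors at their target genes. Several of those targets, AXIN2, NKD1, RNF43, NOTUM and DKK1 among them in mammals, dampen the signal in turn and are commonly read as its feedback genes. WNT5A and WNT5B are best known for branches that do not run through beta-catenin, while WNT7B is known in kidney for its role in collecting duct and medulla formation in the mouse.

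MDCK cells are an epithelial line from dog kidney, and stranded mRNA libraries had been made from its sublines MDCK-II and MDCK-NBL2. Each subline gave untreated cells of day 0 and of day 4, and cells of day 4 that had been treated with TGFb, the cytokine most used to induce epithelial-mesenchymal transition (EMT). In addition, TGFb-treated MDCK-NBL2 cells at day 4 received either the control siRNA siCTR or siPRRX1, an siRNA against the transcription factor PRRX1, so both siRNA groups carried the TGFb treatment as well. The labels class the untreated groups as epithelial, treated MDCK-II cells and the siPRRX1 group as partial EMT, and treated MDCK-NBL2 cells without siPRRX1 as full EMT. Each of the 8 groups held 3 libraries, numbered 1 to 3. The labels do not say that these were separate cultures, so the p-values below measure the spread between libraries, which may be technical. The labels also do not say whether a subline is 1 clone.

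Total counts per library ran from 6134929 to 27567296. Replicate 2 of the group labelled MDCK-NBL2 untreated day 4 stood apart: on the first principal component, which held 59.4% of the variance, it lay at 59.3, against -4.85 and -19.99 for the other replicates of its group and 84.1 to 98.7 for TGFb-treated MDCK-NBL2. The library labelled MDCK-NBL2 day 0 replicate 1 held RNA of 10 genes typical of MDCK-II, at 11.0% (median) of the level in MDCK-II, where no other MDCK-NBL2 library exceeded 0.633%. Where either library moved a call of the 10 genes across the threshold, or a called log2 fold change by over 1.5 times, the value without it is given as well. The epithelial markers CDH1, EPCAM and PAX8 were present in all 24 libraries, CDH1 at 727 or more counts per 1000000 (CPM), while the kidney marker CDH16 had a median of 0.0677 CPM. Of 5 fibroblast markers, PDGFRB, DCN, LUM and THY1 had a median of 0 CPM, and the summed list ran from 0.629 to 48.0 CPM, with 0.808 to 7.42 CPM in untreated day 4 MDCK-II and 13.4 to 48.0 CPM with TGFb, almost all of it PDGFRA. In MDCK-NBL2 that sum was 2.52 to 29.2 CPM untreated at day 4 and 9.62 to 23.8 CPM with TGFb. The part of this list in the results below was not tested. These are bulk libraries, in which fewer cells expressing a gene and less of its RNA per cell cannot be told apart. Levels are CPM on scaled library sizes with no correction for gene length, so they compare libraries within a gene and not one gene with another.

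The 3 ligands were all detected in every library. WNT5B (ENSCAFG00000015919) was nearly silent in untreated MDCK-II, at 0.897, 0.786 and 1.08 CPM at day 0 and 0.288, 0.0993 and 0.346 CPM at day 4 in replicates 1, 2 and 3. With TGFb, MDCK-II libraries held 34.4, 55.5 and 38.9 CPM of WNT5B. None of the treated libraries came near the untreated ones. In MDCK-NBL2 the WNT5B level was already 38.9, 9.42 and 20.6 CPM at day 0. Untreated at day 4 it was 5.97, 115 and 6.88 CPM, the high value being the library that stood apart. TGFb-treated MDCK-NBL2 held 234, 206 and 190 CPM of WNT5B, above every library without TGFb in either line.

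WNT5A (ENSCAFG00000029321), the closest relative of WNT5B, was also lowest in untreated day 4 MDCK-II and higher with TGFb in both lines. Its level in MDCK-II was 0.276, 0.550 and 0.840 CPM at day 0, 0.0720, 0.199 and 0.346 CPM untreated at day 4, and 5.06, 13.1 and 11.4 CPM with TGFb. In MDCK-NBL2 it was 4.64, 0.794 and 2.29 CPM at day 0, 2.76, 11.5 and 0.688 CPM untreated at day 4, and 42.8, 28.0 and 21.5 CPM with TGFb. The treated and untreated day 4 libraries did not overlap in either line, whereas the day 0 libraries of the lines did. In the untreated MDCK-NBL2 group the library that stood apart was again the high one.

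WNT7B (ENSCAFG00000000789) followed another pattern. MDCK-II held 15.6, 16.8 and 10.1 CPM at day 0, 2.45, 7.61 and 7.16 CPM untreated at day 4, and 29.9, 33.8 and 37.7 CPM with TGFb. MDCK-NBL2 held 42.6, 34.2 and 23.6 CPM at day 0, 14.3, 37.2 and 20.9 CPM untreated at day 4, and 15.5, 17.4 and 27.7 CPM with TGFb. The MDCK-II groups were fully separate from one another, and the MDCK-NBL2 groups overlapped one another.

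Among the secreted inhibitors, NOTUM (ENSCAFG00000005913) encodes a carboxylesterase that strips the lipid from Wnt proteins. Its level in MDCK-II was 34.7, 36.5 and 36.5 CPM at day 0, 19.7, 31.9 and 29.2 CPM untreated at day 4, and 56.8, 53.6 and 46.3 CPM with TGFb. In MDCK-NBL2 it was 117, 98.6 and 70.3 CPM at day 0, 69.1, 111 and 74.0 CPM untreated at day 4, and 40.9, 64.9 and 44.9 CPM with TGFb. TGFb-treated libraries were thus the highest of the MDCK-II groups and the lowest of these MDCK-NBL2 groups.

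DKK1 (ENSCAFG00000015553) encodes a secreted inhibitor that binds the LRP5 and LRP6 co-receptors. It had no count in any of the 9 MDCK-II libraries, and a count of 0 allows up to 0.0621, 0.0569 and 0.0633 CPM in the day 0, untreated day 4 and TGFb groups, counting error only. All 15 MDCK-NBL2 libraries held it, between 1.89 and 8.53 CPM. It read 2.08, 2.78 and 1.89 CPM at day 0, 2.96, 6.21 and 2.18 CPM untreated at day 4, and 4.80, 3.78 and 7.97 CPM with TGFb.

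RNF43 (ENSCAFG00000017526) encodes an E3 ligase that removes Frizzled receptors from the cell surface. In MDCK-II it stood at 3.93, 6.05 and 5.04 CPM at day 0, 7.56, 4.37 and 4.73 CPM untreated at day 4, and 12.1, 8.10 and 10.5 CPM with TGFb. In MDCK-NBL2 it stood at 15.4, 21.1 and 19.3 CPM at day 0, 18.9, 22.3 and 19.0 CPM untreated at day 4, and 22.8, 19.98 and 18.9 CPM with TGFb. Every MDCK-NBL2 library lay above every MDCK-II library, treated ones included.

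AXIN2 (ENSCAFG00000011236), a scaffold of the destruction complex and the usual readout of canonical signalling, was likewise higher in all MDCK-NBL2 libraries than in any of MDCK-II. The MDCK-II levels were 4.00, 6.17 and 3.24 CPM at day 0, 4.61, 3.11 and 3.35 CPM untreated at day 4, and 8.31, 8.94 and 9.37 CPM with TGFb. The MDCK-NBL2 levels were 11.9, 25.9 and 33.1 CPM at day 0, 48.8, 25.4 and 24.0 CPM untreated at day 4, and 19.95, 14.1 and 12.9 CPM with TGFb. The day 0 library with MDCK-II genes was the lowest of its group. NKD1 (ENSCAFG00000009841), which encodes a Dishevelled antagonist, reached at most 5 counts in a library and was at 0 in 13 of 24.

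TCF7 (ENSCAFG00000000990), which encodes the factor TCF1, was lower in TGFb-treated libraries of both lines. MDCK-II held 24.99, 29.0 and 30.2 CPM at day 0, 21.0, 18.6 and 17.7 CPM untreated at day 4, and 10.9, 10.1 and 8.59 CPM with TGFb. MDCK-NBL2 held 22.3, 19.4 and 16.0 CPM at day 0, 21.5, 20.3 and 17.2 CPM untreated at day 4, and 8.06, 10.8 and 8.72 CPM with TGFb. Treated and untreated libraries did not overlap in either line. LEF1 (ENSCAFG00000011252), which encodes another factor of the same family, was at 0 in 22 of 24 libraries and had 1 count in each of the others, siCTR replicates 2 and 3.

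**Figure D1:**
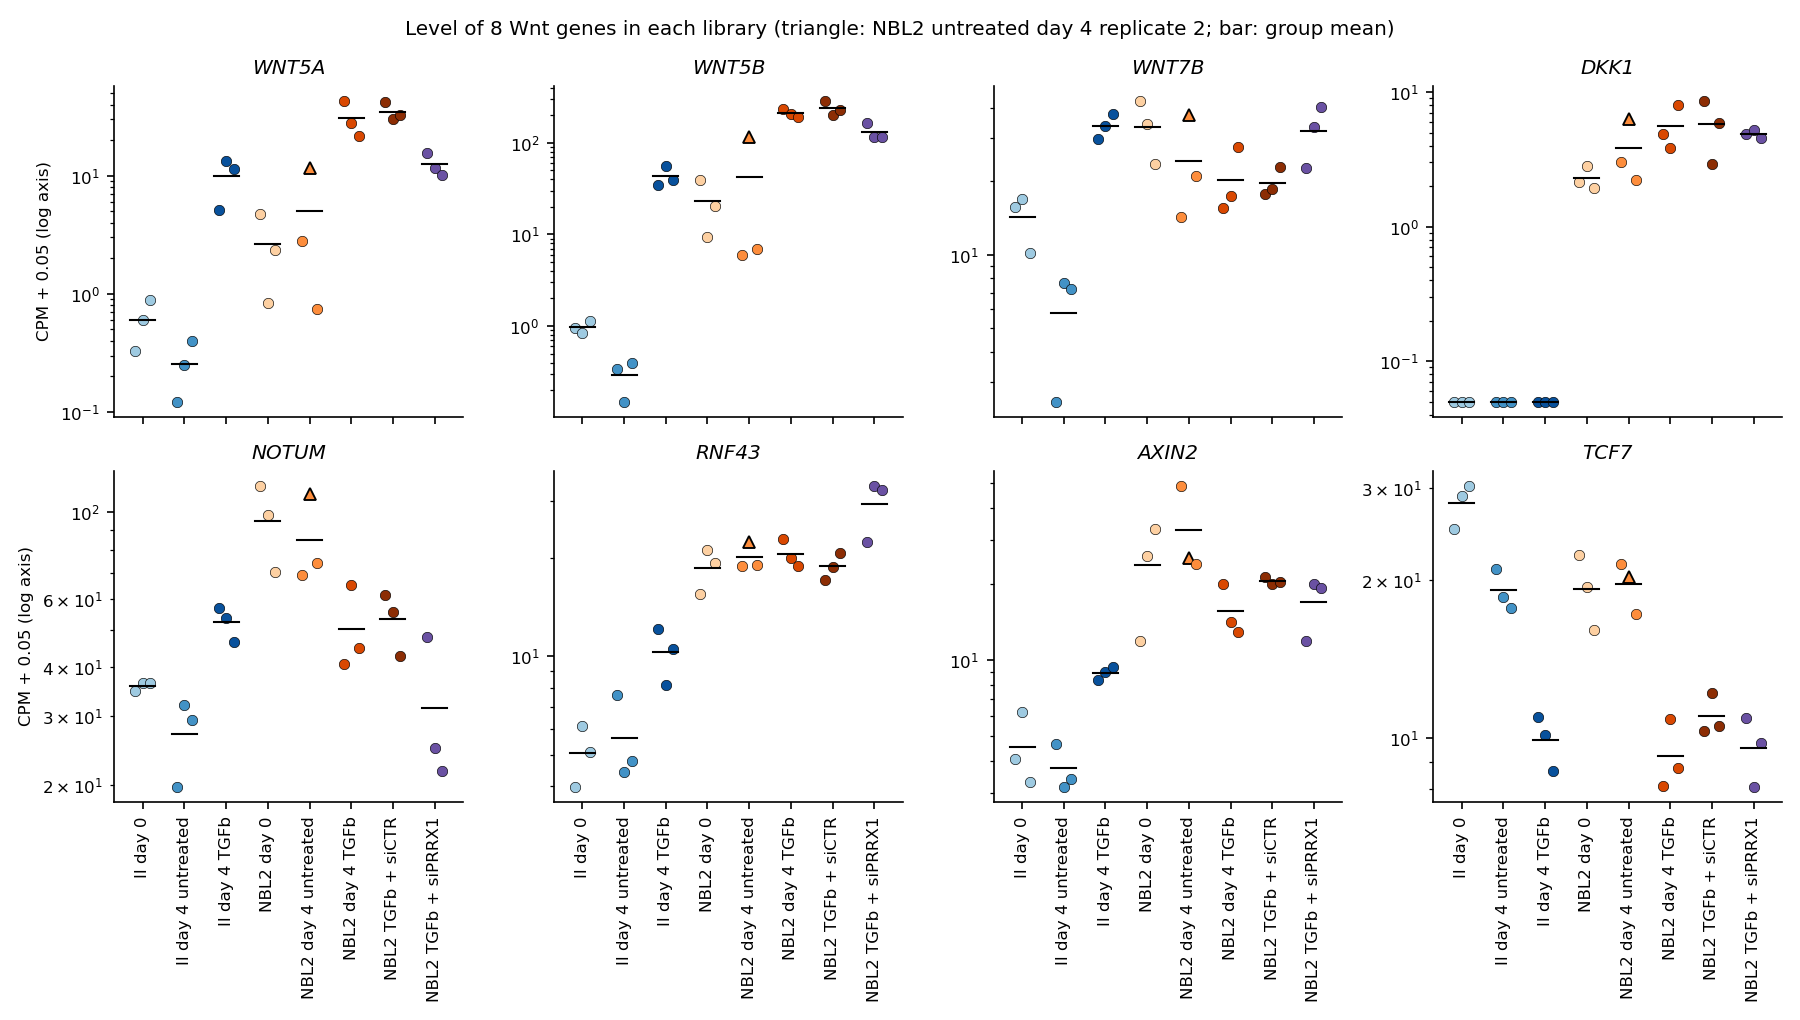
Level of the 8 tested genes in each of the 24 libraries, as CPM plus 0.05 on log axes that differ between panels, with 3 points per group, a bar for the group mean and a triangle for MDCK-NBL2 untreated day 4 replicate 2. DKK1 sits at the floor in all 9 MDCK-II libraries, RNF43 and AXIN2 are higher in every MDCK-NBL2 library than in any MDCK-II library, and TCF7 is lowest in the TGFb-treated groups of both lines.

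Ordered by group mean, WNT5B ran from siCTR at 237 CPM and TGFb-treated MDCK-NBL2 at 210 CPM, which overlapped, through siPRRX1 at 132 CPM to treated MDCK-II at 42.9 CPM. Below these, treated MDCK-II, untreated day 4 MDCK-NBL2 at 42.5 CPM and day 0 MDCK-NBL2 at 23.0 CPM overlapped from one to the next, and day 0 MDCK-II at 0.921 CPM and untreated day 4 MDCK-II at 0.245 CPM lay apart from each other and from the rest. This order rests on the 2 libraries named above. Without replicate 2, untreated day 4 MDCK-NBL2 had a mean of 6.43 CPM (5.97 and 6.88 CPM) and lay below all day 0 MDCK-NBL2 libraries, and without replicate 1 day 0 MDCK-NBL2 had a mean of 15.01 CPM and no longer overlapped treated MDCK-II. For WNT5A, siCTR and treated MDCK-NBL2 overlapped at 34.7 and 30.8 CPM and lay above siPRRX1 at 12.5 CPM, and from there on each group overlapped the next, but without its replicate 2 untreated day 4 MDCK-NBL2, then 0.688 and 2.76 CPM, lay below treated MDCK-II. RNF43 had 5 MDCK-NBL2 groups between 18.6 and 29.3 CPM, each overlapping the next, then treated MDCK-II at 10.2 CPM, then untreated MDCK-II at day 4 and day 0, which overlapped at 5.55 and 5.01 CPM. TCF7 was highest in day 0 MDCK-II at 28.1 CPM, the 3 other untreated groups overlapped between 19.1 and 19.7 CPM, and the 4 TGFb-treated groups overlapped between 9.21 and 11.0 CPM. AXIN2 ran from 32.7 CPM in untreated day 4 MDCK-NBL2 down to 15.7 CPM in treated MDCK-NBL2, then to treated MDCK-II at 8.87 CPM and the untreated MDCK-II groups at 4.47 and 3.69 CPM.

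The lines were compared first without TGFb, to place their basal levels. DKK1 is left out of the counts between lines, since it passed the filter through MDCK-NBL2 alone and could only come out higher there. WNT5A and WNT5B are kept, though untreated MDCK-II held only 0.0720 to 0.840 CPM of WNT5A and 0.0993 to 1.08 CPM of WNT5B. In the untreated counts of both days these genes thus had little room to come out lower in MDCK-NBL2. At day 0, 5 of the other 7 tested genes were higher in MDCK-NBL2 and TCF7 was lower, where 28.5% of all 12466 genes tested differed between the lines, 14.8% being higher and 13.8% lower in MDCK-NBL2 (edgeR quasi-likelihood test, adjusted p under 0.05). Of the 11341 genes that reached the filter's level in both lines, 26.7% differed. The median log2 difference was 1.88 over the 7 genes and -0.05 over those 11341. WNT5B differed by 4.68 ± 0.95 on the log2 scale (SE, adjusted p = 0.000878), a 25.6-fold higher level. With 1 library left out the WNT5B difference ran from 4.025 to 5.07, with adjusted p up to 0.00875. It was lowest without MDCK-NBL2 day 0 replicate 1. AXIN2 differed by 2.35 ± 0.35 (adjusted p = 3.35e-05), a 5.10-fold higher level, and RNF43 by 1.88 ± 0.22 (adjusted p = 2.62e-06), a 3.69-fold higher level. All 3 were higher in MDCK-NBL2.

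NOTUM was 2.66-fold higher in MDCK-NBL2 at day 0, a log2 difference of 1.41 ± 0.27 (adjusted p = 0.000559). The mean DKK1 level was at least 36.2-fold higher, set against a floor of 3 counts over the MDCK-II group. WNT7B differed by 1.23 ± 0.36 (adjusted p = 0.0151). It was no longer called without MDCK-NBL2 day 0 replicate 1, at 1.02 and adjusted p = 0.0681, or without MDCK-II day 0 replicate 3, at 1.05 and adjusted p = 0.0738. Without the former library 5 of the 7 genes were called, in a fit whose share of all genes is not printed here. WNT5A, with a log2 difference of 2.22 ± 0.85, did not pass the test (adjusted p = 0.0564). It passed without MDCK-NBL2 day 0 replicate 2, at 2.76 and adjusted p = 0.0206, or without MDCK-NBL2 untreated day 4 replicate 2, which is in neither group, at 2.20 and adjusted p = 0.0155. It also passed in a fit of only the 2 groups (adjusted p = 0.0382) and by DESeq2 (adjusted p = 0.00784), and it was 1.28 with adjusted p = 0.365 without MDCK-NBL2 day 0 replicate 1. TCF7 was lower by -0.54 ± 0.15 (adjusted p = 0.0104), and its call was lost without MDCK-NBL2 day 0 replicate 3, at -0.43 and adjusted p = 0.0651.

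At day 4 without TGFb, 6 of the 7 genes were higher in MDCK-NBL2, beside 36.3% of all genes that differed in either direction and 21.0% that were higher, or 34.1% and 19.4% of the genes that reached the filter's level in both lines. The log2 differences were 7.72 ± 1.16 for WNT5B (adjusted p = 3.12e-05), 4.74 ± 0.92 for WNT5A (adjusted p = 0.000429) and 2.07 ± 0.38 for WNT7B (adjusted p = 0.000282). All 3 ligands thus passed this test, but WNT7B did not in a fit of only the 2 groups, at 2.08 and adjusted p = 0.0529, or 1.60 and adjusted p = 0.0983 there without MDCK-NBL2 replicate 2. AXIN2 differed by 3.16 ± 0.36 (adjusted p = 1.16e-06), RNF43 by 1.86 ± 0.22 (adjusted p = 1.9e-06) and NOTUM by 1.65 ± 0.28 (adjusted p = 9.49e-05). The mean DKK1 level was at least 66.6-fold higher, and at least 45.2-fold without MDCK-NBL2 replicate 2. TCF7, at 0.05 ± 0.15, did not pass the test (adjusted p = 0.839). Without the library that stood apart the same 6 genes were still called, with 4.97 for WNT5B, 3.32 for WNT5A, 1.58 for WNT7B, 3.32 for AXIN2, 1.78 for RNF43 and 1.41 for NOTUM, beside 34.1% of all 12574 genes then tested.

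With TGFb in both lines, 3 of the 7 genes, or 42.9%, were higher in MDCK-NBL2 and 0 lower. Of all genes, 45.9% differed in either direction and 23.7% were higher. Of those that reached the filter's level in both lines, 44.4% differed and 22.0% were higher. The share of the 7 genes called was thus near that of all genes. RNF43 differed by 1.02 ± 0.22 (adjusted p = 0.000871), WNT5B by 2.29 ± 0.72 (adjusted p = 0.0146) and WNT5A by 1.62 ± 0.60 (adjusted p = 0.0323), and the mean DKK1 level was at least 87.2-fold higher. AXIN2 at 0.81 ± 0.34 (adjusted p = 0.0564), WNT7B at -0.74 ± 0.37 (adjusted p = 0.108) and NOTUM at -0.05 ± 0.27 (adjusted p = 0.892) did not pass. In a fit of only the 2 groups AXIN2 passed at 0.80 (adjusted p = 0.00576) and WNT7B at -0.74 (adjusted p = 0.012), and AXIN2 also passed by DESeq2 (adjusted p = 0.0459). The WNT5A call was lost without MDCK-II TGFb replicate 1 (1.302, adjusted p = 0.122) or 3 (1.72, adjusted p = 0.0599), or without MDCK-NBL2 TGFb replicate 1 (1.32, adjusted p = 0.122) or 2 (1.69, adjusted p = 0.0536). The WNT5B call was lost without MDCK-II TGFb replicate 1 (2.13, adjusted p = 0.0537), and AXIN2 passed without MDCK-NBL2 day 0 replicate 1 (0.81, adjusted p = 0.0264).

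**Figure D2:**
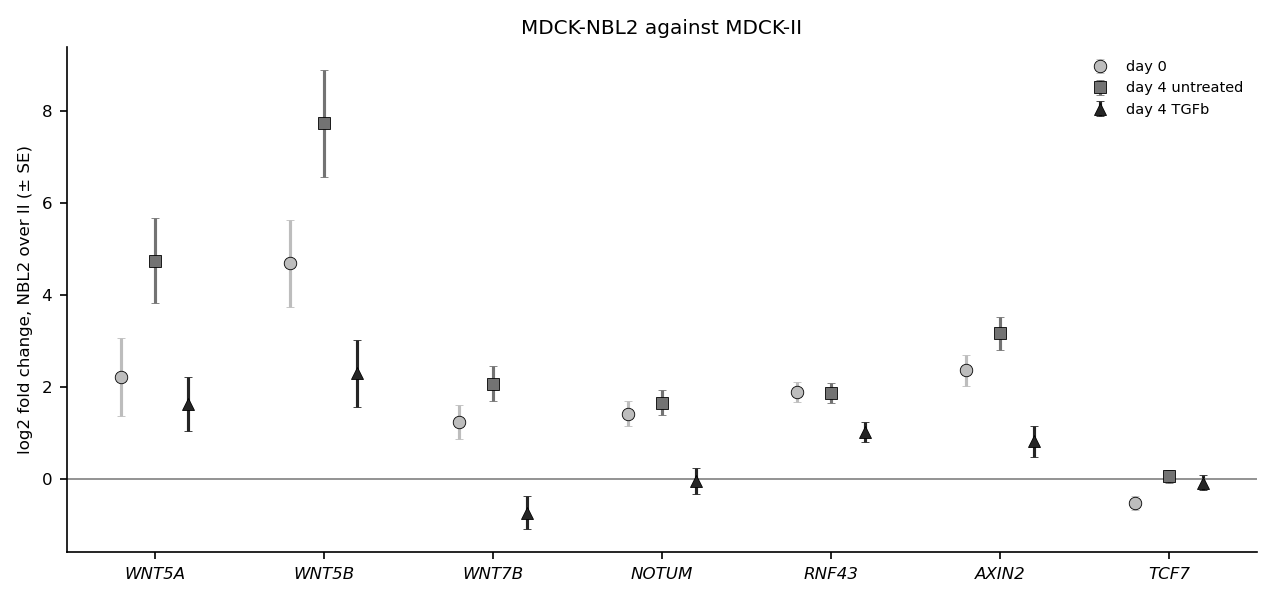
Log2 fold change of MDCK-NBL2 over MDCK-II for the 7 genes measured in both lines, at day 0 (circles), day 4 untreated (squares) and day 4 with TGFb (triangles), with SE bars from 3 libraries per group. The untreated day 4 values run from 0.05 for TCF7 to 7.72 for WNT5B, and the TGFb values of WNT7B, NOTUM and TCF7 lie at or below 0.

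TGFb changed 7 of the 8 tested genes in MDCK-II, 6 of them upward, where 21.1% of all genes changed, 11.8% rising and 9.27% falling. The median log2 change was 1.11 over the 8 genes and -0.03 over all genes. DKK1, without a count in MDCK-II, entered that median as 0 and could not be called. WNT5B rose by 7.72 ± 1.16 on the log2 scale (adjusted p = 0.000273), 211-fold from a group that held 10 counts in all, and WNT5A by 5.65 ± 0.91 (adjusted p = 0.00043), 50.1-fold from a group that also held 10 counts. WNT7B rose 5.85-fold, by 2.55 ± 0.39 (adjusted p = 0.000295). The ligands moved most among these genes.

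Of the feedback genes in MDCK-II, AXIN2 rose by 1.27 ± 0.35 (adjusted p = 0.0162), NOTUM by 0.95 ± 0.27 (adjusted p = 0.0191) and RNF43 by 0.88 ± 0.22 (adjusted p = 0.0097). TCF7 fell by -0.95 ± 0.15 (adjusted p = 0.000477), 1.93-fold. In this fit of all 24 libraries, the 3 rises of AXIN2, NOTUM and RNF43 lay close to the threshold. The AXIN2 call was lost without MDCK-II untreated day 4 replicate 2 (adjusted p = 0.0712) or 3 (adjusted p = 0.0518), or without TGFb replicate 2 (adjusted p = 0.0511), at 1.14 to 1.27. The NOTUM call was lost without untreated day 4 replicate 1 (0.77, adjusted p = 0.0695) or TGFb replicate 2 (0.94, adjusted p = 0.0605), and that of RNF43 without untreated day 4 replicate 2 (0.71, adjusted p = 0.0579) or in a fit of only the 2 groups (0.89, adjusted p = 0.0566). DKK1 had no count in either group. Replicate numbers paired the day 4 MDCK-II libraries, at correlations of 0.251 to 0.421. With the replicate number as a block in only the 2 groups, a setting chosen after seeing the data, all 3 rises were called. AXIN2 rose by 1.302 ± 0.218 (adjusted p = 0.00926) and NOTUM by 0.991 ± 0.181 (adjusted p = 0.0118). RNF43 rose by 0.906 ± 0.176 (adjusted p = 0.0145). Of the 8 genes, 7 were tested there, 6 called as rising and 1 as falling, beside 28.4% of 11708 genes called.

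In MDCK-NBL2, TGFb changed 5 of the 8 genes, 2 upward and 3 downward, where 44.3% of all genes changed, 21.0% rising and 23.4% falling. WNT5A rose by 2.53 ± 0.61 (adjusted p = 0.00281) and WNT5B by 2.28 ± 0.72 (adjusted p = 0.015). Without untreated day 4 replicate 2 their rises were 3.94 ± 0.60 (adjusted p = 1.81e-05) and 5.04 ± 0.45 (adjusted p = 4.53e-08). Both rises were larger by over 1.5 times on the log2 scale without that library. Fitted with only its 2 groups, the comparison called 1 gene, TCF7, and far fewer of all genes than the fit of all groups. It called 4 genes when that library was also left out. The share of all genes in that fit is not printed here, so this count is a description only. Leaving it out of the fit of all groups, 54.8% of all genes changed and 5 of the 8 genes did, 3 upward and 2 downward.

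AXIN2 and NOTUM moved in MDCK-NBL2 in the opposite direction to MDCK-II. AXIN2 fell by -1.08 ± 0.33 (adjusted p = 0.0128), and by -1.24 ± 0.35 (adjusted p = 0.00539) without untreated replicate 2. The AXIN2 call was lost without untreated replicate 1, its highest library, at -0.67 and adjusted p = 0.115, and without TGFb replicate 3, at -0.96 and adjusted p = 0.0555. NOTUM fell by -0.75 ± 0.27 (adjusted p = 0.0306), and this call was lost without untreated replicate 2 (-0.50, adjusted p = 0.136), TGFb replicate 1 (-0.63, adjusted p = 0.119) or TGFb replicate 3 (-0.68, adjusted p = 0.0976). The NOTUM call was also lost with the library number series as a term (-0.57, adjusted p = 0.0608). In this comparison TGFb replicate 1 carries a library number of the AL58 series and all other libraries of the AL26 series.

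TCF7 fell in MDCK-NBL2 by -1.09 ± 0.16 (adjusted p = 6.67e-05), 2.13-fold, and was called with each library of the comparison left out in turn. WNT7B at -0.26 ± 0.37 (adjusted p = 0.593), or 0.22 without untreated replicate 2, and RNF43 at 0.03 ± 0.21 (adjusted p = 0.919) did not pass. DKK1 at 0.50 ± 0.43 (adjusted p = 0.364) did not pass either, but did without untreated replicate 2, at 1.06 ± 0.43 and adjusted p = 0.0497.

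Whether the response differed between the lines was tested as its own term, MDCK-NBL2 response minus MDCK-II response. It was negative and called for 4 of 8 genes, beside 5.70% of all genes called and 3.18% called in that direction. DKK1 is among the 8 but, with no count in MDCK-II, could not be called. The difference was -2.80 ± 0.53 for WNT7B (adjusted p = 0.00627), -2.35 ± 0.48 for AXIN2 (adjusted p = 0.0101), -1.71 ± 0.39 for NOTUM (adjusted p = 0.0156) and -5.44 ± 1.42 for WNT5B (adjusted p = 0.0312). Of these, AXIN2 and NOTUM rose in one line and fell in the other, WNT5B rose in both, and WNT7B rose in MDCK-II and was not called in MDCK-NBL2. WNT5A at -3.11 ± 1.14 (adjusted p = 0.107), RNF43 at -0.84 ± 0.30 (adjusted p = 0.101) and TCF7 at -0.14 ± 0.22 (adjusted p = 0.768) did not pass.

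Without MDCK-NBL2 untreated day 4 replicate 2, the same 4 genes were called, beside 21.1% of all genes. The difference was then -2.69 ± 0.80 for WNT5B (adjusted p = 0.0218), -2.32 ± 0.49 for WNT7B (adjusted p = 0.00276), -1.46 ± 0.38 for NOTUM (adjusted p = 0.0102) and -2.52 ± 0.49 for AXIN2 (adjusted p = 0.00171). The WNT5B value was thus smaller by over 1.5 times. Its call was lost when any of 6 other libraries was left out: MDCK-II untreated day 4 replicate 2 (adjusted p = 0.0963) or 3 (adjusted p = 0.0606), MDCK-II TGFb replicate 2 (adjusted p = 0.0625), or MDCK-NBL2 TGFb replicate 1 (adjusted p = 0.0632), 2 (adjusted p = 0.0571) or 3 (adjusted p = 0.0591), with values from -5.70 to -4.79. WNT5A passed without MDCK-NBL2 untreated day 4 replicate 3 (-3.55, adjusted p = 0.0334) and RNF43 without MDCK-II untreated day 4 replicate 1 (-1.14, adjusted p = 0.0238). With 1 library left out the WNT5A value ran from -3.55 to -1.71, with adjusted p up to 0.237. It was smallest in size without MDCK-NBL2 untreated day 4 replicate 2. WNT5A also passed by DESeq2 (adjusted p = 0.035). In a fit of only the 4 groups of this comparison 1 of the 8 genes was called, AXIN2. Far fewer of all genes were called there than in the fit of all groups.

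**Figure D3:**
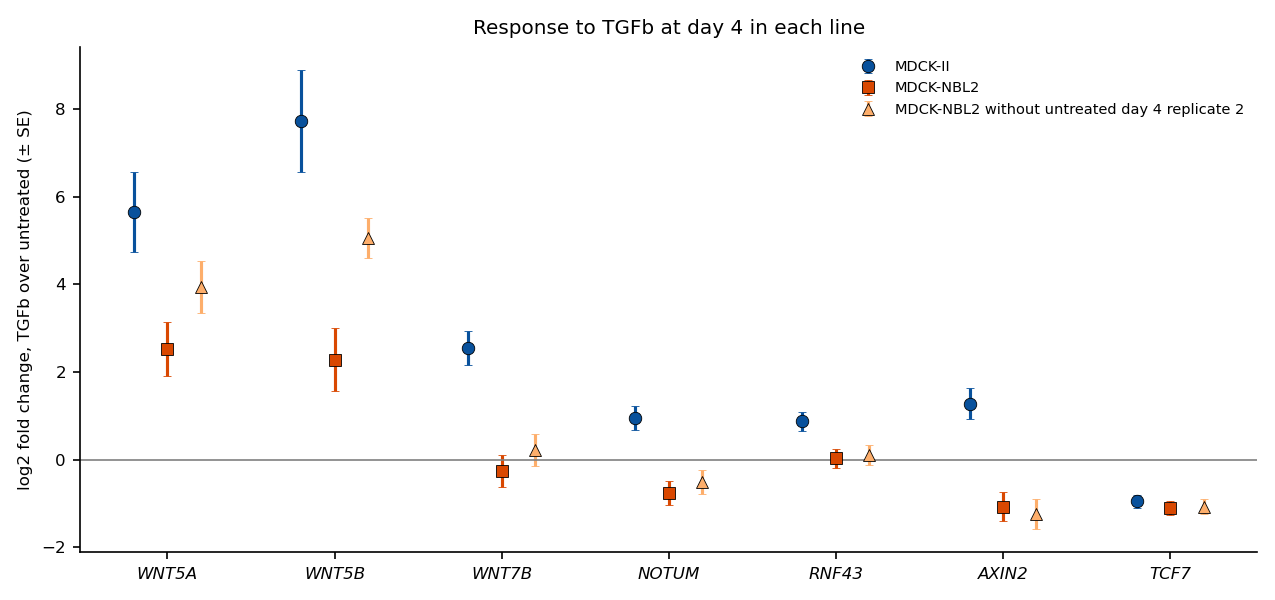
Log2 fold change of TGFb over untreated at day 4 for 7 genes, with SE bars, in MDCK-II (circles), MDCK-NBL2 (squares) and MDCK-NBL2 without untreated replicate 2 (triangles), from 3 libraries per group or 2 for that untreated group. AXIN2 reads 1.27 in MDCK-II and -1.08 in MDCK-NBL2, TCF7 lies near -1 in all 3, and leaving the library out moves WNT5B from 2.28 to 5.04.

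The siRNA groups asked what the 8 genes did in TGFb-treated MDCK-NBL2 cells when PRRX1 was silenced. PRRX1 itself read 33.9, 7.35 and 3.88 CPM in siCTR replicates 1, 2 and 3 and 1.11, 0.339 and 0 CPM in siPRRX1, a log2 change of -4.64 ± 1.17 (adjusted p = 0.0435). In each replicate number the siPRRX1 library was the lower. In both groups replicate 1 carries a library number of the AL26 series and replicates 2 and 3 of the AL58 series, so replicate number and library series cannot be told apart.

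By edgeR's quasi-likelihood test over all 24 libraries, 0 of the 8 genes passed for siPRRX1, beside 2.00% of all genes, 0.810% rising and 1.19% falling. At an unadjusted p under 0.05 there were 3, and DESeq2's test also called 0. The replicate numbers paired these libraries, since same-numbered libraries deviated together from their group means at correlations of 0.164 to 0.343. In a fit of the 2 siRNA groups with the replicate number as a block, 5 of the 8 genes passed, beside 22.5% of 11239 genes tested. Within the AL58 series alone 5 genes also passed, where far more of all genes passed than in the fit of all 24 libraries.

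The WNT5A level was 41.8, 30.0 and 32.4 CPM with siCTR and 15.6, 11.6 and 10.2 CPM with siPRRX1, siPRRX1 over siCTR ratios of 0.373, 0.388 and 0.314 within replicate numbers. Its log2 change was -1.47 ± 0.59 without the block (adjusted p = 0.235) and -1.47 ± 0.10 with it (adjusted p = 8.95e-05). The groups did not overlap. WNT5B read 286, 199 and 228 CPM with siCTR and 164, 116 and 116 CPM with siPRRX1, ratios of 0.574, 0.582 and 0.511. Its change was -0.85 ± 0.69 without the block (adjusted p = 0.628) and -0.84 ± 0.07 with it (adjusted p = 0.000116). With siPRRX1 both ligands stayed above their levels in untreated day 4 MDCK-II, the other line. In untreated day 4 MDCK-NBL2 WNT5A was at 0.688 to 11.5 CPM and overlapped the siPRRX1 group. WNT5B was at 5.97 to 114.8 CPM there, just below the lowest siPRRX1 library at 115.6 CPM. Both upper values came from the library that stood apart, its other replicates holding at most 2.76 CPM of WNT5A and 6.88 CPM of WNT5B. This comparison was not tested.

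WNT7B was higher in each siPRRX1 library than in its partner, at 22.6, 33.3 and 40.4 CPM against 17.8, 18.5 and 22.8 CPM, with ratios of 1.27, 1.80 and 1.77. The change was 0.70 ± 0.37 without the block (adjusted p = 0.394) and 0.64 ± 0.12 with it (adjusted p = 0.00655). RNF43 read 22.4, 33.2 and 32.2 CPM against 17.1, 18.7 and 20.7 CPM, with ratios of 1.304, 1.78 and 1.56. Its change was 0.63 ± 0.21 without the block (adjusted p = 0.136) and 0.60 ± 0.11 with it (adjusted p = 0.00634). NOTUM was lower in each pair, at 47.9, 24.7 and 21.6 CPM against 61.1, 55.4 and 42.9 CPM, with ratios of 0.783, 0.446 and 0.504. Its change was -0.75 ± 0.27 without the block (adjusted p = 0.189) and -0.76 ± 0.15 with it (adjusted p = 0.00674), and it passed without the block when siPRRX1 replicate 1 was left out (-1.20, adjusted p = 0.0286). For WNT7B, RNF43 and NOTUM, the AL26 pair showed the smallest of the 3 ratios' departures from 1.

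The other 3 genes did not pass in either fit. AXIN2 read 11.9, 19.9 and 19.2 CPM with siPRRX1 against 21.3, 19.97 and 20.4 CPM with siCTR, a change of -0.29 ± 0.33 (adjusted p = 0.757) and, with the block, adjusted p = 0.157. The low AXIN2 value came from replicate 1. TCF7 changed by -0.19 ± 0.16 (adjusted p = 0.648), and with the block the adjusted p was 0.525. DKK1 read 4.84, 5.20 and 4.52 CPM with siPRRX1 against 8.53, 2.88 and 5.82 CPM with siCTR, with adjusted p = 0.84 and, with the block, adjusted p = 0.506. The siRNA groups overlapped for WNT7B, NOTUM, TCF7 and DKK1 and not for WNT5A, WNT5B and RNF43. Those of AXIN2 nearly touched, at up to 19.88 CPM with siPRRX1 and 19.97 CPM or more with siCTR. The share of all genes without overlap is not given here, so this list is a description only.

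**Figure D4:**
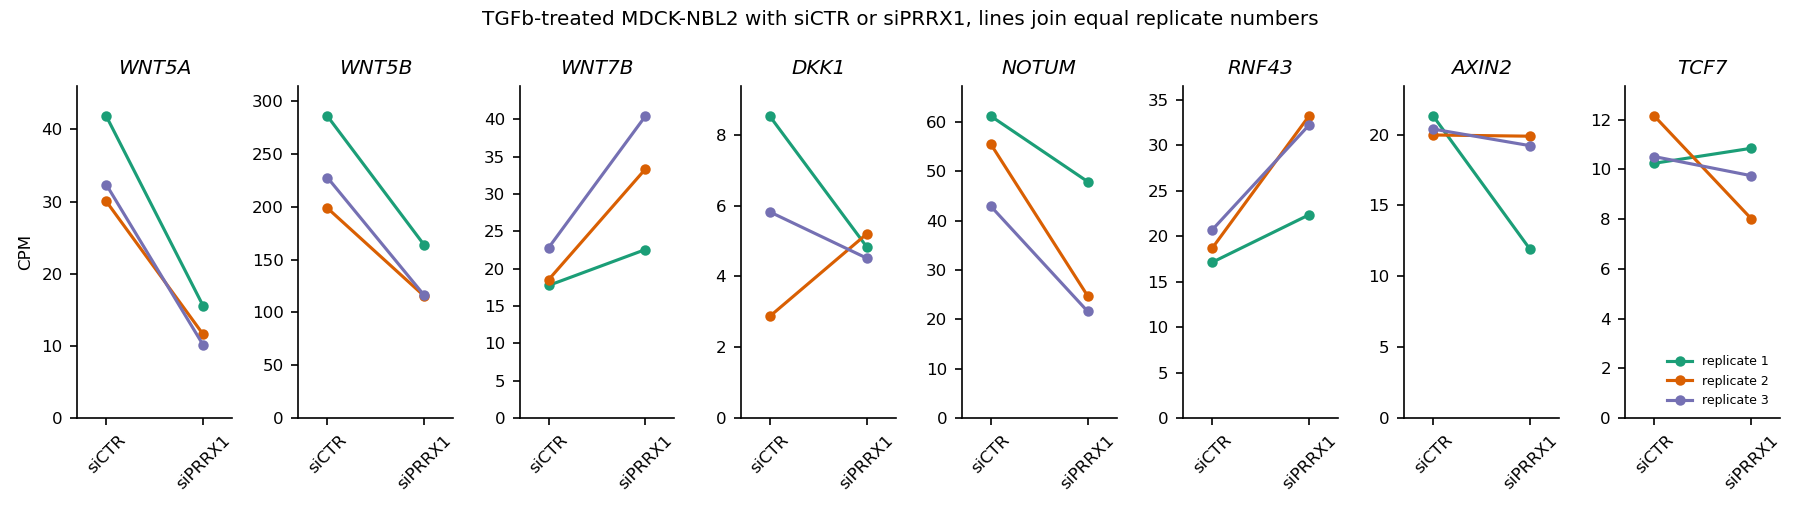
CPM of the 8 tested genes in TGFb-treated MDCK-NBL2 cells with siCTR or siPRRX1, on axes that start at 0, with 1 point per library and lines joining equal replicate numbers. All 3 lines fall for WNT5A, WNT5B and NOTUM and rise for WNT7B and RNF43, while those of DKK1 and TCF7 cross.

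Without treatment, the time from day 0 to day 4 changed 2 of 8 genes in MDCK-II, beside 9.81% of all genes, 5.76% rising and 4.05% falling. DKK1 is among these 8 but had no count in MDCK-II. WNT7B fell by -1.31 ± 0.38 (adjusted p = 0.0367) and TCF7 by -0.55 ± 0.15 (adjusted p = 0.0255). Both calls rested on single libraries. WNT7B lost its call without MDCK-II day 0 replicate 1 (-1.24, adjusted p = 0.108) or 2 (-1.17, adjusted p = 0.132), or untreated day 4 replicate 1 (-0.95, adjusted p = 0.167) or 3 (-1.46, adjusted p = 0.0508), and in a fit of only the 2 groups (adjusted p = 0.0825), which called WNT5B instead (-2.06, adjusted p = 0.0466). TCF7 lost its call without day 0 replicate 2 (-0.53, adjusted p = 0.0895) or 3 (-0.50, adjusted p = 0.0944), or untreated day 4 replicate 2 (-0.53, adjusted p = 0.0562) or 3 (-0.51, adjusted p = 0.0752). In MDCK-NBL2, 0 of 8 passed edgeR's quasi-likelihood test, beside 17.7% of all genes, 12.4% rising and 5.26% falling, with 0 at an unadjusted p under 0.05 and 0 by DESeq2. Without untreated day 4 replicate 2, WNT5B passed there with a fall of -1.84 (adjusted p = 0.00867), and without replicate 3 WNT5A passed with a rise of 1.54 (adjusted p = 0.0405), where it read -0.29 (adjusted p = 0.772) without replicate 2.

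The rest of the pathway was followed with a list of 98 further Wnt genes in the table, of which 66 were tested. TGFb raised 20 and lowered 3 of them in MDCK-II, beside the 21.1% of all genes that changed, with a median log2 change of 0.18. In MDCK-NBL2 it raised 22 and lowered 10, beside 44.3%, with a median of 0.26. The difference of responses was called for 7, 5 of them positive, beside 5.70%. Without MDCK-NBL2 untreated day 4 replicate 2 the counts were 23 and 4 in MDCK-II, 26 and 13 in MDCK-NBL2 beside 54.8% of all genes, and 11 positive and 6 negative for the difference beside 21.1%. Fitted with only the groups compared, 4 further genes were called for TGFb in MDCK-NBL2 and 2 for the difference. Far fewer of all genes were called in those fits as well. In MDCK-II the count fell to 14 without untreated day 4 replicate 2, a fit whose share of all genes is not printed here.

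By role, TGFb in MDCK-II raised 4 of 16 receptors and co-receptors, 4 of 10 TCF/LEF factors and nuclear cofactors and 4 of 8 other beta-catenin targets, and lowered 1 of those 8, beside the 11.8% of all genes that rose and 9.27% that fell. It changed 0 of 4 inhibitors and 1 of 6 genes of the destruction complex and beta-catenin. Among the genes that rose were FZD2, a Frizzled receptor, at 16.7 ± 7.81 CPM (SD, n = 3) untreated and 90.4 ± 22.6 CPM with TGFb, and EPHB2, an ephrin receptor and beta-catenin target, at 67.0 ± 27.0 and 453 ± 47.7 CPM. CTNNB1, the gene for beta-catenin, rose by 0.86 ± 0.19 (adjusted p = 0.00482), and WLS, which carries Wnt proteins to the cell surface, by 1.01 ± 0.25 (adjusted p = 0.00945). LGR4, an R-spondin receptor, fell by -0.81 ± 0.22 (adjusted p = 0.0159), a call lost without TGFb replicate 1 (-0.77, adjusted p = 0.0501). In MDCK-NBL2, LGR4 fell by -1.23 ± 0.22 (adjusted p = 0.000318), and by -1.52 ± 0.16 (adjusted p = 2.77e-07) without untreated replicate 2, but was not called in a fit of only the 2 groups (adjusted p = 0.0635).

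In MDCK-NBL2, 4 receptors rose and 1 fell of 16, and of 10 TCF/LEF factors and cofactors 2 rose and 3 fell, beside 21.0% of all genes rising and 23.4% falling. FZD9 went from 0.259 ± 0.129 to 3.09 ± 0.329 CPM, a log2 change of 3.39 ± 0.41 (adjusted p = 1.75e-05). TLE3, a Groucho corepressor of TCF factors, fell by -1.91 ± 0.33 (adjusted p = 0.000229), and CD44, a surface glycoprotein and beta-catenin target, rose by 1.43 ± 0.24 (adjusted p = 0.000192). The TLE3 change was -1.22 (adjusted p = 0.00107) without untreated replicate 1, its highest library. Without untreated replicate 2 the changes were -2.22 for TLE3 and 1.79 for CD44, and both of these and FZD9 (adjusted p = 1.29e-05) were called. In a fit of only the 2 groups TLE3 (adjusted p = 0.0561) and CD44 (adjusted p = 0.0531) were not called. CCN4, also known as WISP1, had 38 counts with TGFb and 1 without, or 114 times as many per count sequenced (95% counting interval 19.3 to 4633), 63.1 times without untreated replicate 2, and no count in MDCK-II.

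The 7 further genes whose response differed between the lines were the ligand WNT2, the receptors FZD4, FZD5 and FZD9, the DKK co-receptor KREMEN1, the corepressor TLE1 and the formin DAAM1 of the planar polarity branch. TLE1 rose in MDCK-II by 1.14 ± 0.15 (adjusted p = 7.67e-05) and fell in MDCK-NBL2 by -0.57 ± 0.15 (adjusted p = 0.00493), a difference of -1.71 ± 0.21 (adjusted p = 0.000298). DAAM1 went the other way, falling in MDCK-II by -0.77 ± 0.18 (adjusted p = 0.00583) and rising in MDCK-NBL2 by 0.93 ± 0.18 (adjusted p = 0.000479). TLE1 thus moved as AXIN2 and NOTUM did in both lines, and DAAM1 in the opposite way. Without untreated replicate 2 the MDCK-NBL2 changes were -0.51 for TLE1 and 1.01 for DAAM1, both called. In a fit of only the 2 groups neither was called, with adjusted p = 0.0833 for TLE1 and adjusted p = 0.0524 for DAAM1.

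WNT2 was at 10.4 ± 0.435 and 9.34 ± 0.903 CPM without and with TGFb in MDCK-II, and at 4.47 ± 3.62 and 23.2 ± 4.34 CPM in MDCK-NBL2, a difference of responses of 2.47 ± 0.57 (adjusted p = 0.0176). FZD4 was at 6.75 ± 0.955 and 6.36 ± 0.630 CPM in MDCK-II and at 6.31 ± 2.71 and 22.1 ± 0.447 CPM in MDCK-NBL2, a difference of 1.85 ± 0.41 (adjusted p = 0.0134). KREMEN1 differed by 1.56 ± 0.34 (adjusted p = 0.0125) and FZD5 by -1.51 ± 0.42 (adjusted p = 0.0415). The FZD5 call was lost in 7 of 13 settings that each left out 1 library, with adjusted p up to 0.109. Without untreated MDCK-NBL2 replicate 2 the untreated means there were 2.38 CPM for WNT2 and 5.05 CPM for FZD4, and the differences were 3.43 for WNT2, 2.15 for FZD4, 1.92 for KREMEN1 and -1.65 for FZD5, all called. Fitted with only the 4 groups compared, the difference was not called for WNT2 (adjusted p = 0.102), FZD4 (adjusted p = 0.0728), KREMEN1 (adjusted p = 0.133), FZD5 (adjusted p = 0.233) or FZD9 (adjusted p = 0.0761).

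Of the 66 further genes, 52 reached the filter's level in both lines. Between the untreated lines at day 0, 12 of the 52 were higher in MDCK-NBL2 and 10 lower, beside 26.7% of all such genes, and at day 4, 21 were higher and 12 lower, beside 34.1%. With TGFb in both lines 24 were higher and 10 lower, beside 44.4%. ROR2, LGR6 and SP5 are not among the 52. ROR2, a receptor for WNT5A, had no count in any MDCK-II library and stood at 5.23 ± 1.61 CPM in MDCK-NBL2 at day 0, at least 84.2-fold higher. LGR6, an R-spondin receptor, stood at 0.102 ± 0.0288 CPM in MDCK-II and 7.13 ± 3.88 CPM in MDCK-NBL2 at day 0, or 5.74 CPM without replicate 1. TCF7L1, which encodes the factor TCF3, was at 1.66 ± 0.798 and 8.69 ± 6.27 CPM, a difference of 2.52 ± 0.50 (adjusted p = 0.000641), and at 5.07 CPM with a difference of 1.74 without MDCK-NBL2 replicate 1, still called. SP5, a beta-catenin target, was lower in MDCK-NBL2, with 61 counts in MDCK-II and 3 in MDCK-NBL2, or 21.9 times as many per count sequenced (95% counting interval 7.16 to 109). Of these 3 counts 2 came from MDCK-NBL2 day 0 replicate 1, and without it the ratio was 47.6 (8.23 to 1910).

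With siPRRX1, FZD4 passed the test over all libraries at -1.09 ± 0.28 (adjusted p = 0.0499), a call lost in 6 of 8 settings that each left out 1 library. With the replicate block, 4 of 54 further genes rose and 9 fell, beside 22.5% of all genes. The share called among the further genes was thus near that of all genes. The falls included ROR2 at -1.69 ± 0.30 (adjusted p = 0.00492), EPHB2 at -1.48 ± 0.08 (adjusted p = 5.21e-05) and FZD4 at -1.10 ± 0.13 (adjusted p = 0.000863). WNT2 at -0.91 ± 0.19 (adjusted p = 0.00987) and KREMEN1 at -0.69 ± 0.11 (adjusted p = 0.00325) also fell. Of the rises, only TLE3 at 0.28 ± 0.09 (adjusted p = 0.0493) was eligible by the naming rule given below. The mean ROR2 level was 3.75 ± 0.903 CPM with siCTR and 1.16 ± 0.659 CPM with siPRRX1.

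**Figure D5:**
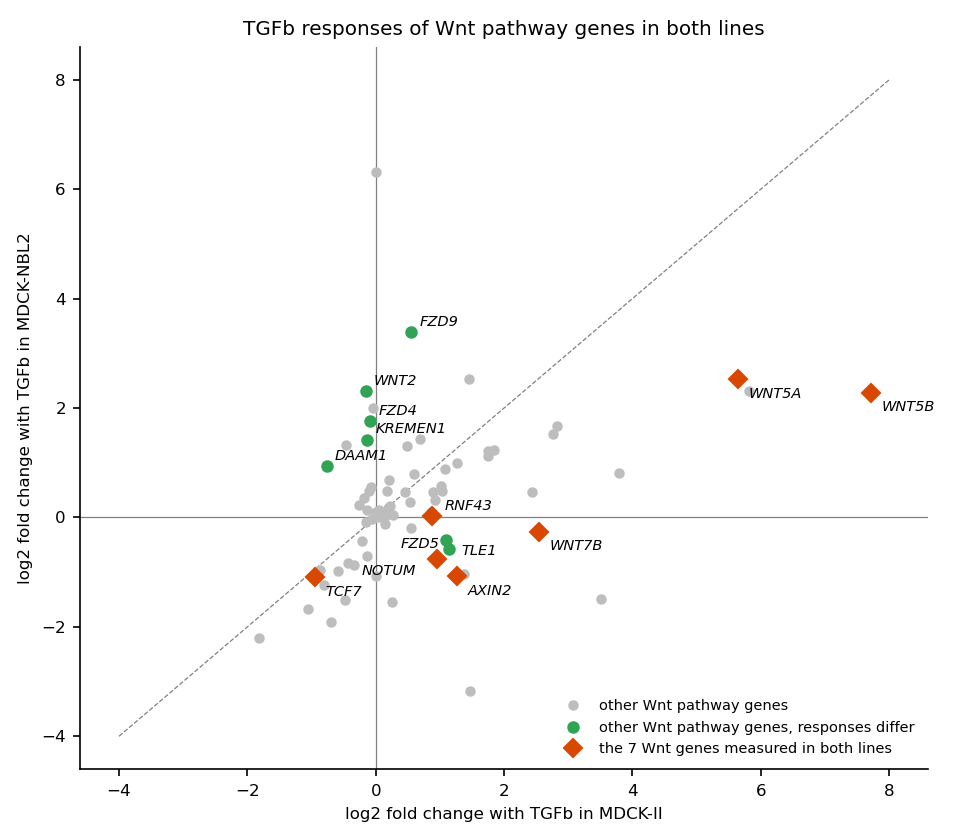
Log2 fold change with TGFb in MDCK-II (x axis) and MDCK-NBL2 (y axis) for the 7 genes measured in both lines (diamonds) and 66 further Wnt genes (grey, or green where the difference of responses was called), with a dashed line of equal response. NOTUM, AXIN2 and TLE1 lie in the quadrant of a rise in MDCK-II and a fall in MDCK-NBL2, and DAAM1 in the opposite one.

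Over the 24 libraries, the log2 levels most like those of WNT5B were those of LRRC8C (Pearson r = 0.986), IGSF23 (0.985), ATP10A (0.983) and TSPAN13 (0.980). Those most like AXIN2 were PLCE1 (0.931), CAB39L (0.926), XK (0.922) and IL17RD (0.921). These correlations are descriptions over libraries that share groups, lines and treatments. The values for WNT5B were higher than those for AXIN2.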

How the data were processed

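Gene expression was measured by stranded mRNA sequencing in 24 libraries of 2 MDCK sublines. The deposited table holds whole-number counts per gene, without normalization; per the submitters' processing notes, STAR 2.5.3a, RSEM 1.3.0 and FastQC were used with the build CanFam3.1. What each tool did, the annotation release, any rounding and the strand setting are not stated there or elsewhere in the labels, so reads of a gene and its antisense partner may not be told apart. Every column matched 1 sample, no column was left over, and each library took its group from its label. The TGFb dose is not printed because its unit in the labels is doubtful.

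Counts were tested with edgeR 4.0.16 (limma 3.58.1, R 4.3.3) in 1 fit of all 24 libraries with a mean per group, 16 residual degrees of freedom, TMM scaling and a filter (minimum count 10, minimum total 15) that left 12466 genes. A prior count of 0.125 was used, and variation between replicate libraries beyond counting error had a common coefficient of 21.9%. P-values were Benjamini-Hochberg adjusted over all genes tested, and a change was an adjusted p under 0.05. The SE was obtained by dividing the absolute log2 fold change by the root of its F statistic. Folds against a group without counts are bounds, the mean CPM over a floor of 3 counts per group. Counts between the lines use genes that reached, in 3 or more libraries of each line, the CPM of 10 counts at the median depth, a choice made after seeing the data. CPM use TMM-scaled totals. Totals ran from 6134929 to 27567296 per library, so a low CPM rests on few counts, and bounds and intervals cover counting error only. No pair of replicates agreed within sampling noise. The code was tested on simulated data.

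The members, the 98 further Wnt genes, the tests and the alternatives were chosen with earlier results of these data known. All members are named. Of the further genes, up to 3 per role were eligible by smallest adjusted p in the difference of TGFb responses and up to 2 per role in the TGFb responses, the day 0 line difference and the siPRRX1 effect, and some of these carry no value here. For likeness, the 4 genes with a symbol of highest Pearson correlation of log2 CPM (prior count 2) were taken.

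Replicate numbers were checked for pairing through correlated deviations from the group means. The correlations were all over 0.1 for TGFb in MDCK-II (0.251 to 0.421) and for siPRRX1 (0.164 to 0.343), and not for the other comparisons. The alternatives were DESeq2 1.42.0 size factors and its Wald test, no filter, a block for the replicate number, a term for the library number series, a fit of only the groups compared, and each library left out. Chosen after seeing the data were the block in only the groups compared, the AL58 libraries alone, and only the groups compared without MDCK-NBL2 untreated day 4 replicate 2. Gene positions and sequences are not used here.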

Additional observations from a re-analysis of the deposited data

Results flagged for a closer look

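For 4 genes the response to TGFb differed between the lines by a test of the difference itself, the MDCK-NBL2 response minus the MDCK-II response, on the log2 scale (edgeR quasi-likelihood test). The difference was -5.438 for WNT5B (adjusted p = 0.0312), -2.805 for WNT7B (adjusted p = 0.00627), -1.706 for NOTUM (adjusted p = 0.0156) and -2.347 for AXIN2 (adjusted p = 0.0101). Without MDCK-NBL2 untreated day 4 replicate 2 the WNT5B difference was -2.693, and its call was lost when any of 6 other libraries was left out. The untreated day 4 MDCK-II group held 10 counts of WNT5B in all, so the size of that difference rests on few counts. With TGFb the mean WNT5B level was 210 CPM in MDCK-NBL2 and 42.9 CPM in MDCK-II. The 3 treated MDCK-II libraries were above the 3 untreated ones for all 4 genes, while for NOTUM and AXIN2 the 3 treated MDCK-NBL2 libraries were below the 3 untreated ones.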

How the results depend on the processing

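Over 423 values of the members under other settings, 372 kept direction and side of the threshold, 22 lost and 22 gained a call and 7 changed sign. Over 456 values with 1 library left out, these were 408, 33, 8 and 7. The cause of these changes was not tested, beyond the fewer libraries in a fit. In only the groups compared, the members called went from 5 to 1 for TGFb in MDCK-NBL2, from 4 to 1 for the difference of responses and from 0 to 3 for siPRRX1. With the replicate block in only the groups compared they were 0 for TGFb in MDCK-NBL2, 5 for siPRRX1 and 0 for MDCK-II over time. Further Wnt genes called for TGFb in MDCK-NBL2 and for the difference were 4 and 2 in only the groups compared and 0 and 1 with the block there, against 32 and 7. With the block there WNT5A between the untreated lines at day 4 lost its call (adjusted p = 0.0589) and WNT7B between the treated lines gained one (adjusted p = 0.00175). The block over all 24 libraries changed none of these counts by over 1.5 times. In AL58 libraries alone, 5 were called for siPRRX1. With each library left out, counts ran from 3 to 5 for TGFb in MDCK-NBL2, 2 to 5 between the treated lines (DKK1 included), 0 to 1 for siPRRX1, 0 to 2 for MDCK-II over time and 0 to 1 for MDCK-NBL2 over time.

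RNF43 with TGFb in MDCK-NBL2 read -0.0104 with no filter and -0.0792 with the library series as a term, and -0.0491 to 0.112 with 1 library left out. WNT7B there read 0.19 in only the groups compared without untreated replicate 2, and -0.55 to 0.22 with 1 library left out. In MDCK-NBL2 over time, WNT5A read -0.50 and WNT5B -1.87 under that same setting, WNT5B -0.64 with the block in only the groups compared, and with 1 library left out they ran from -0.29 to 2.04 and from -1.84 to 1.57. DKK1 with siPRRX1 read 0.18 in AL58 libraries, and -0.58 to 0.16 with 1 library left out.

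Over all genes, the difference of responses called 711 genes, against 1188 by DESeq2, 48 in only the groups compared, 49 with the block there, 1152 there without MDCK-NBL2 untreated replicate 2, and 311 to 2653 with 1 library left out. TGFb in MDCK-NBL2 called 5525, against 510 and 40 with the block, and in MDCK-II 2626, against 1257 at the lowest with 1 library left out. siPRRX1 called 249, against 472 by DESeq2, 163 with no filter, 1159 in only its groups, 2528 with the block, 1911 in AL58 libraries and 54 to 655 with 1 library left out. The untreated lines at day 4 called 4527, against 1267, 1076 with the block and 1285 without that replicate. Over time MDCK-II called 1223, against 496 with the block and 509 to 2075 with 1 library left out, and MDCK-NBL2 2206, against 0 and 729 to 5324. With 3 libraries a group, depth limited DKK1 in MDCK-II, NKD1 and LEF1.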
